A study of Mus musculus with 199 samples.

Results

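The 31 genes described here are 21 immediate early genes and 10 heat shock genes, out of 37713 genes in a table of RNA-seq read counts from 199 mouse libraries. They were chosen by name: a gene was a member where its Ensembl identifier mapped to 1 of the 31 symbols, and all 31 were in the table. By role, the immediate early members are the AP-1 and ATF subunits Fos, Fosb, Jun, Junb, Jund and Atf3, the early growth response factors Egr1, Egr2 and Egr3, the orphan nuclear receptors Nr4a1, Nr4a2 and Nr4a3, the early response genes Ier2, Ier3 and Ier5 with the zinc finger factor Klf6, and the feedback genes Dusp1, Dusp2, Zfp36, Btg2 and Socs3. The heat shock members are the HSP70 chaperones Hspa1a, Hspa1b and Hspa8, their partners Dnajb1, Hsph1 and Bag3, the small heat shock protein Hspb1, the HSP90 chaperone Hsp90aa1, and the mitochondrial chaperonin pair Hspe1 and Hspd1.

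All mice were male wild-type C57BL/6 animals from an in-house colony, and ages, doses and treatment times are not given in the sources used here. DEN ALIOS names a model of liver cancer on a fatty liver. As background, DEN is the usual short form of the carcinogen diethylnitrosamine and ALIOS of a diet rich in fat and sugar, which the labels do not spell out. aPD1 is an antibody against the T cell checkpoint receptor PD-1, and CXCR2i is an inhibitor of CXCR2, the chemokine receptor that guides neutrophils into tissue. CD3+ T cells were sorted from liver and blood of the same animals: 5 mice with DEN ALIOS CXCR2i/aPD1, 6 with DEN ALIOS CXCR2i, 5 with DEN ALIOS aPD1, 6 with DEN ALIOS and no further agent, 6 with CXCR2i and no DEN ALIOS in the label, and 8 with PBS. Ly6G+ neutrophils were sorted from both sites in 8, 10, 5 and 6 mice of the 4 DEN ALIOS groups in the same order, and in neither of the other 2. Some untreated and combination mice had a blood library without a liver library of the same cell type. The fits with the animal as a block left these out, while group shares and marker sums include them. The untreated DEN ALIOS groups include mice labelled Vehicle, and 4 mice of each DEN ALIOS CXCR2i group are also labelled aPD1 isotype. In the titles sorted cells come from liver or blood, whereas the sorting protocol speaks of tumours and blood, so liver below can include tumour. Whole tissue came from 25 large tumours, 25 small tumours and 15 pieces of liver tissue, with no animal named for any of them. The liver tissue is titled DEN ALIOS but carries the treatment label Normal.

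Immediate early genes are transcribed within minutes of a signal from already present factors, without new protein synthesis. Most of their products are transcription factors that switch on a later wave of genes, and several, such as the phosphatase Dusp1 and the mRNA-decay factor Zfp36, shut the signal off again. Heat shock genes are switched on by heat shock factor 1 when unfolded proteins accumulate, and their products refold or hold those proteins. In T cells Egr2, Egr3 and the NR4A receptors are known to follow antigen receptor signalling, and in neutrophils these genes follow adhesion and inflammatory signals. Both sets are also known to respond while tissue is taken apart to isolate cells.

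Promoter sequences are shown for 7 members that each held a searched motif, taken from RefSeq on GRCm38.p6 as the 250 bases before the start, 5′ to 3′ on the gene's strand. They do not stand for all members with large changes. Fos, Egr1, Nr4a1 and Nr4a3 had no match found and are not shown. RefSeq held such a sequence for 26 of the 31 members. Capitals mark the motif found by letter search on both strands: GAANNTTC or TTCNNGAA, a heat shock factor element, in Hspa1a, Hspa1b and Hsph1, its 13-base form, in which a further NNGAA or NNTTC follows, in Hspe1, the cAMP response element TGACGTCA in Dusp1 and Btg2, and the AP-1 site TGACTCA in Bag3.
Hspa1a promoter, chr17:34972157-34972406 (minus strand): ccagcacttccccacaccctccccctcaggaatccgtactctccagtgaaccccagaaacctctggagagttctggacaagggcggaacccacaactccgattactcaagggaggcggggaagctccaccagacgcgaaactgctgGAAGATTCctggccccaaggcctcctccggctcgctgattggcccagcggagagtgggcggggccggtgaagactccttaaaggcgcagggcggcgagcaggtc
Hspa1b promoter, chr17:34959239-34959488 (minus strand): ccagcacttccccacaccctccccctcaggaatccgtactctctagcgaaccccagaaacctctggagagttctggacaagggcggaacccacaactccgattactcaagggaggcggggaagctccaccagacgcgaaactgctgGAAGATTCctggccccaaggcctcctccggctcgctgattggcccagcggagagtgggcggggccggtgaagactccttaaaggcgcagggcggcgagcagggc
Hsph1 promoter, chr5:149636337-149636586 (minus strand): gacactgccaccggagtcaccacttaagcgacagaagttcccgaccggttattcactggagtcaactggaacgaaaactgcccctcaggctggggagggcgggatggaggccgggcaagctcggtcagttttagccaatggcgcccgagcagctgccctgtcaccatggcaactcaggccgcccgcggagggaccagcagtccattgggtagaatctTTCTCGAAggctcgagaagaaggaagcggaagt
Hspe1 promoter, chr1:55087898-55088147 (plus strand): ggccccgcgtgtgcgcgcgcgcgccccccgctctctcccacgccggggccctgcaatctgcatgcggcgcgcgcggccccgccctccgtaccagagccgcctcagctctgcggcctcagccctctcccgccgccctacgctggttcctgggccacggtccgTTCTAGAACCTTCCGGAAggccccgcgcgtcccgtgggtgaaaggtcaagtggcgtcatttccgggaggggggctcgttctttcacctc
Dusp1 promoter, chr17:26508473-26508722 (minus strand): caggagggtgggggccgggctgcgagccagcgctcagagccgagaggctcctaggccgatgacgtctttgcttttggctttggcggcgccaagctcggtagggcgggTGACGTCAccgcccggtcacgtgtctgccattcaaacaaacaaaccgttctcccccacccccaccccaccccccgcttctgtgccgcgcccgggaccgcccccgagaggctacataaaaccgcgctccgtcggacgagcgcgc
Btg2 promoter, chr1:134079156-134079405 (minus strand): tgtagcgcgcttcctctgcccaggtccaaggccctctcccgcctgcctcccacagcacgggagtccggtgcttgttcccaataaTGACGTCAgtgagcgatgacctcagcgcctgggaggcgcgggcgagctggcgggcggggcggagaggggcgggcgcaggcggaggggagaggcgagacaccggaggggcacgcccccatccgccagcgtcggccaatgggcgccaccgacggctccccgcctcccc
Bag3 promoter, chr7:128523333-128523582 (plus strand): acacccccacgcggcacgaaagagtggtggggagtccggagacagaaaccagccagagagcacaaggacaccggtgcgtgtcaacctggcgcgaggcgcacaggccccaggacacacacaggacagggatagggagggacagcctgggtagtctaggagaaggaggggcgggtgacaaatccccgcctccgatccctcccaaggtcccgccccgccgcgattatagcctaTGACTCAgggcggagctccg

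The 8-base heat shock element stood in 12.8% of 32851 RefSeq promoters, of 27025 genes, searched over the same length. It also stood in 6 of the 8 heat shock members with a sequence, which are Hspa1a, Hspa1b, Hspb1, Hspd1, Hspe1 and Hsph1. Shares count each promoter of a gene, while a member counts where any of its promoters held the motif, so the measures are unlike. Egr2 and Jun held it too. The 13-base form, which contains the 8-base form, stood in 0.466% of promoters and in Hspd1 and Hspe1, which share 1 promoter region head to head. Their gene starts are 111 bases apart in the GENCODE annotation, and the RefSeq starts used for the sequences differ from these. The element lay 89 to 72 bases before the RefSeq start of Hspe1 and 144 to 127 bases before that of Hspd1. The cAMP response element was found in 1.55% of promoters, the AP-1 site in 4.46%, and the CArG box bound by serum response factor in 1.47%, among them Egr2 and Zfp36. Of the 26 members searched, 2 held the cAMP response element and 1, Bag3, the AP-1 site, which is near the share over all promoters for that site. The promoters of Hspa1a and Hspa1b are identical at 247 of 250 positions, and the coding genes are near-identical too, so the split of reads between them is uncertain. A match is a description of letters and not a measured binding site.

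The sorted libraries held 580113 to 9256224 gene counts in neutrophils and 337110 to 10755816 in T cells, and the tissue libraries 12055434 to 21850190. Levels are given as CPM, counts per 1000000 counts of the genes kept by the expression filter, scaled between libraries by edgeR's TMM method. The cut-offs on Cd3e and S100a8 used plain counts per 1000000 gene counts instead. In the T cell libraries 10 T cell markers summed to 1697 to 5113 CPM, and in the neutrophil libraries 10 neutrophil markers summed to 1023 to 83870 CPM, lowest in a liver library that also held T cell RNA. Liver libraries carried more RNA of other liver cells. In untreated DEN ALIOS mice 12 hepatocyte markers summed to a median of 465 CPM in liver neutrophils against 10.6 CPM in blood neutrophils, and to 39.1 CPM in liver T cells against 0.443 CPM in blood T cells. The sums of 8 resident macrophage markers were 196 CPM in liver neutrophils and 0 in blood neutrophils, those of 8 endothelial markers 114 and 2.14 CPM, and those of 7 B cell markers 36.6 and 1.22 CPM. Blood libraries carried more platelet RNA, with 6 markers at 11.1 CPM in liver neutrophils and 110.4 CPM in blood neutrophils. In PBS mice the hepatocyte sum in liver T cells had a median of 196 CPM and reached 3193 CPM, and in mice given CXCR2i alone it was 22.8 CPM in liver T cells and 18.6 CPM in blood T cells. The part of this RNA in the results below was not tested. Of the neutrophil libraries, 2 untreated and 2 aPD1 livers held over 20 CPM of Cd3e, a T cell receptor subunit, and 4 sorted libraries held under 1000000 gene counts: 1 untreated blood neutrophil, 1 combination liver neutrophil and 2 PBS liver T cell libraries. Results that rest on them are also given without them. Signs of RNA quality moved with the site as well. In neutrophils a median of 10.8% of gene counts in liver libraries and 6.54% in blood libraries was mitochondrial, with up to 41.2% in an untreated liver, and 29.0% and 19.6% of reads were not aligned. Their part in the results was not tested.

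In whole libraries, the 21 immediate early genes together took a median of 3.27% of gene counts in liver neutrophils of untreated DEN ALIOS mice against 0.776% in blood neutrophils, and 0.217% in liver T cells against 0.0876% in blood T cells. The 10 heat shock genes showed the other order of cell types, with 0.231% in liver T cells against 0.0962% in blood T cells, and 0.0520% in liver neutrophils against 0.0260% in blood neutrophils. Levels were also set per kilobase of all annotated exon sequence of a gene, which can be longer than any single transcript. On this scale the highest median levels of members in untreated liver neutrophils were those of Zfp36 at 1515 CPM per kb, Junb at 1405, Dusp1 at 1352 and Fos at 1283, and in untreated liver T cells those of Hspa8 at 180 CPM per kb, Hsp90aa1 at 146 and Jund at 141. Cell types and sites also differ in what else they transcribe, and a share of counts cannot tell more of these RNAs per cell from less of the others. In whole tissue, fewer cells of a type and less RNA per cell cannot be told apart either.

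**Figure D1:**
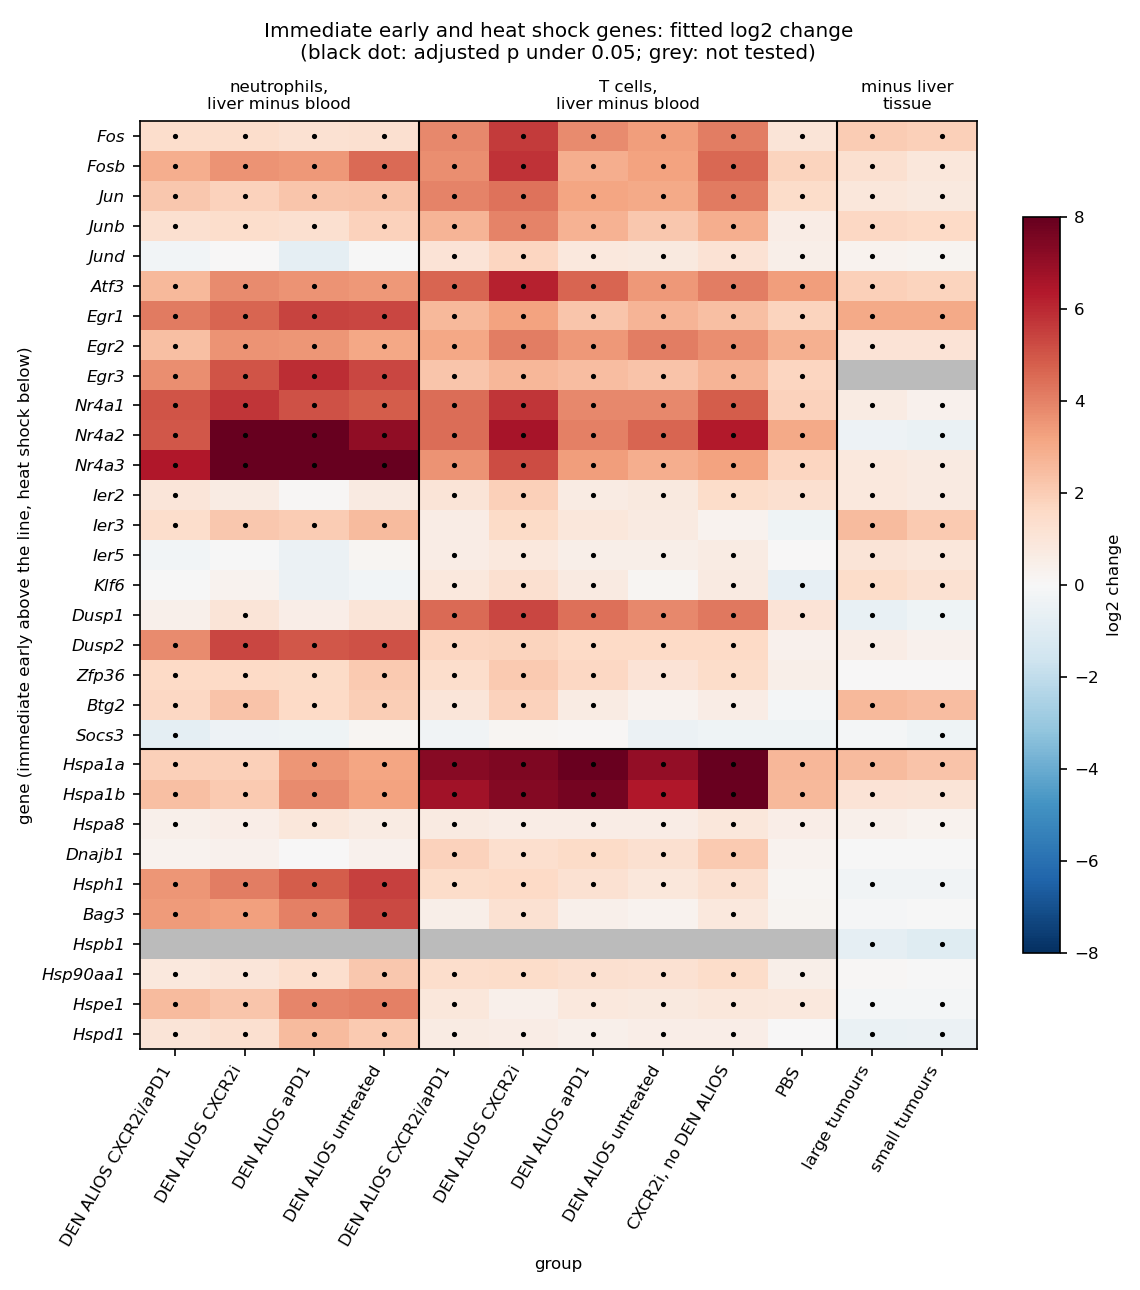
Fitted log2 change of the 31 members (rows) for liver minus blood in neutrophils and T cells of each group and for tumours minus liver tissue (columns). Red is higher and blue lower in liver or tumour, and colours are at full depth from 8 upwards. Black dots mark an adjusted p under 0.05 and grey cells were not tested. Hspa1a stands out in the T cell columns of 5 groups, with 7.04 in untreated mice against 2.65 with PBS, and Nr4a3 in the neutrophil columns, with 9.10 in untreated mice.

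T cells from liver had more RNA of nearly every member than T cells from blood of the same mice, in all 4 DEN ALIOS groups. Of 30 members tested, 27 rose under DEN ALIOS CXCR2i/aPD1, 28 under DEN ALIOS CXCR2i, 27 under DEN ALIOS aPD1 and 25 in untreated DEN ALIOS mice, and none fell. Across all genes tested, 16.2%, 34%, 16.6% and 33% were called in either direction in these comparisons, and 8.88%, 19.9%, 9.25% and 19.8% rose, while 7.31%, 14.1%, 7.31% and 13.2% fell. The median log2 change over the members was 1.80, 2.02, 1.65 and 1.44, beside 0.0198, 0.0403, 0.0319 and 0.0355 over all genes. A call is an adjusted p under 0.05 by edgeR's quasi-likelihood test with Benjamini-Hochberg adjustment over all genes, with the animal as a block. SE in this text is not estimated directly. It is the size of the log2 change divided by the square root of the F value of that test. Liver values lay above all blood values for 26, 25, 22 and 15 members in these groups, and for 4.88%, 6.56%, 6.57% and 9.07% of all genes tested. Hspb1 was at or near 0 in all sorted cells and was not tested.

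The largest changes in T cells of these groups were those of the inducible HSP70 genes Hspa1a and Hspa1b, whose products bind unfolded proteins. Hspa1a had 109, 65.8, 72.1, 96.6 and 129 CPM in the 5 liver libraries under DEN ALIOS CXCR2i/aPD1, against 0.121, 0.182, 0.248, 1.42 and 0.869 CPM in blood. Under DEN ALIOS aPD1 it had 194, 90.8, 142, 32.7 and 49.7 CPM in liver and 0.327, 0.370, 0.282, 0.822 and 0.305 CPM in blood. The lowest, median and highest values were 37.5, 99.5 and 169 CPM in liver and 0.115, 0.248 and 2.06 CPM in blood under DEN ALIOS CXCR2i, and 16.2, 73.2 and 155 CPM in liver and 0, 0.124 and 3.00 CPM in blood of untreated mice. No liver library overlapped a blood library in any of these 4 groups. The log2 changes were 7.28 (SE 0.57, adjusted p = 1.07e-10), 7.46 (SE 0.55, adjusted p = 2.87e-12), 7.89 (SE 0.62, adjusted p = 1.59e-10) and 7.04 (SE 0.57, adjusted p = 9.25e-11). The blood values rest on few reads, 21 counts over 5 libraries, 21 over 6, 14 over 5 and 24 over 7, so the size of these folds is known only roughly. The last of these counts includes a blood library of a mouse without a liver library. Hspa1b, its near-identical neighbour, had log2 changes of 6.72, 7.33, 7.67 and 6.43 in the same order.

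The partners of HSP70 rose less. Dnajb1, the J-domain protein that hands substrates to HSP70, had 36.6, 150.3 and 252 CPM (lowest, median and highest) in untreated liver T cells and 37.5, 44.4 and 84.7 CPM in blood T cells, a log2 change of 1.29 (SE 0.23, adjusted p = 4.31e-05), and 5 of 6 animals were higher in liver. Its changes under DEN ALIOS CXCR2i/aPD1, CXCR2i and aPD1 were 1.87, 1.32 and 1.53. The nucleotide exchange factor Hsph1 rose by 1.46, 1.59, 1.20 and 0.91 in the combination, CXCR2i, aPD1 and untreated groups. Hsp90aa1, the inducible cytosolic HSP90, rose by 1.38, 1.44, 1.25 and 1.22, and the constitutive Hspa8 by 0.75, 0.62, 0.60 and 0.57. Bag3, a co-chaperone that links HSP70 to autophagy, passed the test under DEN ALIOS CXCR2i with 1.19 (SE 0.15, adjusted p = 1.4e-07), and did not in the combination, aPD1 and untreated groups, where its changes were 0.46, 0.39 and 0.27, although in the combination it was called at 0.47 by DESeq2, at 0.47 with relative log expression scaling and at 0.45 when fitted alone. The mitochondrial chaperonins moved by less than 1 log2 unit in each group, Hspd1 by 0.67, 0.57, 0.42 and 0.55 and Hspe1 by 0.91, 0.38, 0.85 and 0.79, of which 0.38 under CXCR2i did not pass.

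The AP-1 genes followed. Fos had 88.1, 162, 40.2, 72.8 and 140.0 CPM in liver T cells under DEN ALIOS CXCR2i/aPD1 and 10.8, 7.46, 5.21, 4.25 and 6.08 CPM in blood T cells. Its lowest, median and highest values under DEN ALIOS CXCR2i were 109, 208 and 815 CPM in liver and 2.99, 6.02 and 9.88 CPM in blood, and 6.79, 45.3 and 79.4 CPM in liver and 1.93, 3.36 and 7.94 CPM in blood of untreated mice. Liver and blood values did not overlap under the 3 treatments, and in untreated mice the lowest liver library lay within the blood values. The log2 changes of Fos were 3.82 (SE 0.39, adjusted p = 1.95e-08), 5.57 (SE 0.38, adjusted p = 4.42e-13), 3.75 (SE 0.42, adjusted p = 8.88e-08) and 3.35 (SE 0.39, adjusted p = 1.03e-07) in the combination, CXCR2i, aPD1 and untreated groups. Its partner Jun rose by 3.97, 4.35, 3.19 and 3.02, Junb by 2.72, 3.98, 2.77 and 2.17, Fosb by 3.69, 5.81, 2.88 and 3.21 and the stress-induced Atf3 by 4.66, 6.18, 4.65 and 3.45. Jund, the AP-1 member that resting cells keep at a steady level, moved least, by 1.07, 1.70, 0.86 and 0.78, and still passed in each group.

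The EGR and NR4A genes, which antigen receptor signalling is known to induce in T cells, rose in each of the 4 groups. In untreated mice Nr4a1 had lowest, median and highest values of 46.8, 65.6 and 75.1 CPM in liver T cells and 3.54, 4.29 and 5.38 CPM in blood T cells, Nr4a2 24.4, 126 and 213 CPM and 2.71, 4.33 and 6.90 CPM, and Nr4a3 32.6, 57.1 and 80.1 CPM and 3.59, 7.68 and 8.58 CPM. Liver and blood did not overlap for any of the 3. The log2 changes of Nr4a1 were 4.46, 5.71, 3.82 and 3.86 in the combination, CXCR2i, aPD1 and untreated groups, those of Nr4a2 4.47, 6.62, 4.04 and 4.64 and those of Nr4a3 3.58, 5.19, 3.37 and 2.94. Egr1 changed by 2.59, 3.21, 2.22 and 2.74, Egr2 by 3.11, 4.07, 3.47 and 4.08 and Egr3 by 2.24, 2.67, 2.46 and 2.26, and none of the 3 overlapped between liver and blood in these groups.

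Among the genes that switch signals off, Dusp1, a phosphatase that inactivates MAP kinases, changed most. It had 50.8, 147 and 205 CPM (lowest, median and highest) in untreated liver T cells and 6.91, 9.10 and 11.3 CPM in blood T cells, and 317, 513 and 799 CPM against 9.30, 11.9 and 17.8 CPM under DEN ALIOS CXCR2i. The groups did not overlap. Under aPD1 its liver values were 428, 169.7, 296, 297 and 131 CPM and its blood values 10.6, 10.7, 12.8, 14.0 and 9.15 CPM. The log2 changes were 4.53 (SE 0.34, adjusted p = 3.6e-11), 5.32 (SE 0.31, adjusted p = 1.36e-14), 4.43 (SE 0.34, adjusted p = 1.15e-10) and 3.82 (SE 0.31, adjusted p = 1.1e-10) in the combination, CXCR2i, aPD1 and untreated groups. Dusp2 rose by 1.74, 1.80, 1.62 and 1.59 and Zfp36, which destabilises cytokine mRNAs, by 1.43, 2.10, 1.68 and 1.10. Btg2, an antiproliferative gene, rose under the 3 treatments by 0.94, 1.84 and 0.65 and had 0.26 (SE 0.17, adjusted p = 0.244) in untreated mice. Ier2 rose by 1.04, 1.93, 0.67 and 0.76 and Ier5 by 0.60, 0.86, 0.49 and 0.47. Klf6 rose by 0.87, 1.28 and 0.75 under the 3 treatments and had 0.13 in untreated mice, and Ier3 passed under DEN ALIOS CXCR2i with 1.55 (SE 0.38, adjusted p = 0.00172). Socs3, the cytokine signalling inhibitor, was between -0.47 and 0.15 and passed in none of the groups. The smallest of these calls depend on single animals: in the aPD1 group of 5 mice Hspa8, Hspd1, Hspe1, Ier2, Ier5 and Btg2 each lost the call in at least 2 of the 5 fits that left out a mouse, where Hspa8 had log2 changes of 0.46 to 0.72, Hspd1 0.32 to 0.48, Hspe1 0.65 to 1.06, Ier2 0.57 to 0.77, Ier5 0.40 to 0.59 and Btg2 0.56 to 0.80. In the combination Ier5 lost it without replicate 2 or 5 (0.46 to 0.75) and Hspe1 without replicate 5 (0.75 to 1.00), and in untreated mice Ier5 without replicate 6 (0.38 to 0.50). With each group fitted alone, Ier3 under CXCR2i (adjusted p = 0.0761), Btg2 in the combination (0.0561) and Hspe1 under aPD1 (0.0535) lost the call by the same edgeR test, while Socs3 in untreated mice at -0.48 gained one, as it did with no filter. Ier3 under aPD1 gained one at 0.90 when fitted alone and at 0.90 with no filter. Without mice labelled Vehicle or aPD1 isotype, which leaves 2 mice under CXCR2i, Hspa8 at 0.52 and Hspd1 at 0.47 lost it there, and Socs3 at 1.47 gained it.

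T cells of mice without DEN ALIOS in the label differed by treatment. With CXCR2i alone, 28 of 30 members rose in liver against blood and none fell, where 16.6% of all genes were called, 10% higher and 6.58% lower. With PBS, 19 rose and Klf6 fell, where 35% of all genes were called, 18.4% higher and 16.6% lower. With relative log expression scaling 62.8% of the genes called with PBS were higher in liver, against 52.5% with the scaling used here. The median log2 change of the members was 1.85 with CXCR2i and 0.71 with PBS, beside 0.0228 and -0.0194 over all genes. Liver values lay above all blood values for 25 members with CXCR2i, against 7.58% of all genes, in 6 mice. With PBS, in 8 mice, they lay above for 3, which are Egr1, Egr2 and Ier2, against 1.02% of all genes, and below for Klf6, against 1.28%. The 2 groups differ in size, so these shares are not compared. Without the 2 shallow liver libraries the PBS count was 18 higher, Atf3 having lost its call, and 1 lower, where 19.1% and 14.2% of all genes were called higher and lower. Liver T cell libraries of PBS mice stood apart in quality. A median of 35.5% of their reads, and up to 90.9%, was not aligned, against 19.7% in their blood libraries, and 22.2% in liver and 21.4% in blood with CXCR2i. Reads outside any gene made up 14.9% in liver and 27.1% in blood with PBS, and 24.1% and 25.1% with CXCR2i. Their part in the difference between these groups was not tested.

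Hspa1a had lowest, median and highest values of 83.6, 128 and 246 CPM in liver T cells and 0, 0.255 and 1.38 CPM in blood T cells of mice given CXCR2i, and 0.546, 5.00 and 17.7 CPM in liver and 0, 0.251 and 2.85 CPM in blood with PBS. Liver stood above blood in all 6 mice given CXCR2i and in 7 of 8 mice given PBS. The blood sums were 15 counts over 6 libraries and 51 counts over 8. The log2 changes were 8.42 (SE 0.57, adjusted p = 3.51e-12) and 2.65 (SE 0.64, adjusted p = 0.00195). Dusp1 had 69.4, 159.6 and 213 CPM in liver and 5.19, 6.69 and 9.72 CPM in blood with CXCR2i, and 5.82, 13.3 and 36.7 CPM in liver and 5.90, 8.89 and 12.7 CPM in blood with PBS. Its log2 changes were 4.24 (SE 0.32, adjusted p = 3.26e-11) and 1.07 (SE 0.31, adjusted p = 0.00754). Fos changed by 4.08 with CXCR2i and 1.06 with PBS, Jun by 4.15 and 1.45, and Nr4a1 by 4.86 and 1.84. The PBS calls of Fos, Junb and Hsp90aa1 were lost without 1 of 3 single animals each, replicates 1, 5 or 8 for Fos, 1, 2 or 8 for Junb and 1, 3 or 7 for Hsp90aa1, with log2 changes of 0.73 to 1.27, 0.48 to 0.74 and 0.31 to 0.60 over the fits that left out a mouse. Fitted alone, the PBS group had no call for Fos (1.15), Hspa8 (0.58), Hsp90aa1 (0.49) and Hspe1 (0.81). Egr2 with 3.69 and 2.81, Ier2 with 1.47 and 1.25, and Hspe1 with 0.91 and 0.82 were close in both groups. Klf6 had 110.0, 158 and 214 CPM in liver and 218, 245 and 315 CPM in blood with PBS, lower in liver in all 8 mice, with a log2 change of -0.65 (SE 0.14, adjusted p = 0.000739), while it rose by 0.69 with CXCR2i.

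The difference between treatments was tested itself, as liver minus blood in one group minus liver minus blood in the other. CXCR2i minus PBS was above 0 for 16 of 30 members and below 0 for none, where 6.4% of all genes were called, 2.99% above and 3.41% below. Hspa1a differed by 5.76 (SE 1.05, adjusted p = 0.00188), Dusp1 by 3.17 (SE 0.43, adjusted p = 6.99e-05), Jun by 2.70 (SE 0.40, adjusted p = 0.00026), Fos by 3.02 (SE 0.54, adjusted p = 0.00154) and Dnajb1 by 1.84 (SE 0.30, adjusted p = 0.000465). DEN ALIOS minus PBS was above 0 for 11 members, where 9.78% of all genes were called, 5.12% above and 4.66% below. Here Hspa1a differed by 4.39 (SE 1.01, adjusted p = 0.00642), Dusp1 by 2.74 (SE 0.43, adjusted p = 0.000298) and Nr4a1 by 2.02 (SE 0.46, adjusted p = 0.00565), and the others were Hspa1b, Fos, Jun, Junb, Dusp2, Nr4a3, Dnajb1 and Klf6. Egr1 with 0.59 and 0.96 and Egr2 with 0.88 and 1.27 passed in neither. With relative log expression scaling 29.5% of the genes called in the first difference and 39.6% of those in the second were above 0, against 46.7% and 52.3% with the scaling used here. Both differences share the PBS mice. Over fits that left out 1 mouse, calls were lost at least once for Jund (0.57 to 0.78), Btg2 (0.73 to 0.88) and Fosb (2.32 to 3.30) in the first, and for Dnajb1 (0.85 to 1.28), Nr4a3 (1.11 to 1.39), Klf6 (0.69 to 0.91) and Jun (1.28 to 1.74) in the second. Without the 2 shallow PBS libraries Btg2 lost the call in the first at 0.71, and Klf6 at 0.66 and Nr4a3 at 1.08 in the second.

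Neither group shared a run with PBS, so run and group cannot be told apart in these 2 differences. Run here means the first part of a library's name in the labels, which do not say what it stands for. All 6 mice given CXCR2i alone came from 1 run, the untreated DEN ALIOS mice from 2 others, and the PBS mice from 3 further runs. The liver and blood libraries of PBS replicate 8 lay in different runs, so site and run cannot be told apart in that mouse. A single run held both a DEN ALIOS group and PBS, with 2 mice under DEN ALIOS CXCR2i and 3 under PBS. In it, the difference between liver and blood in log2(CPM + 1) was 5.14 and 6.39 for Hspa1a in the 2 DEN ALIOS CXCR2i mice and 2.16 to 3.20 in the 3 PBS mice. For Dusp1 the means were 5.36 and 1.25, for Fos 4.40 and 0.24, for Nr4a1 4.86 and 1.42, and for Dnajb1 1.61 and 0.45. Runs also differed within a group: untreated DEN ALIOS mice had Hspa1a differences of 3.83 to 4.85 in 1 run and 6.35 to 7.07 in the other, with 3 mice in each.

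**Figure D2:**
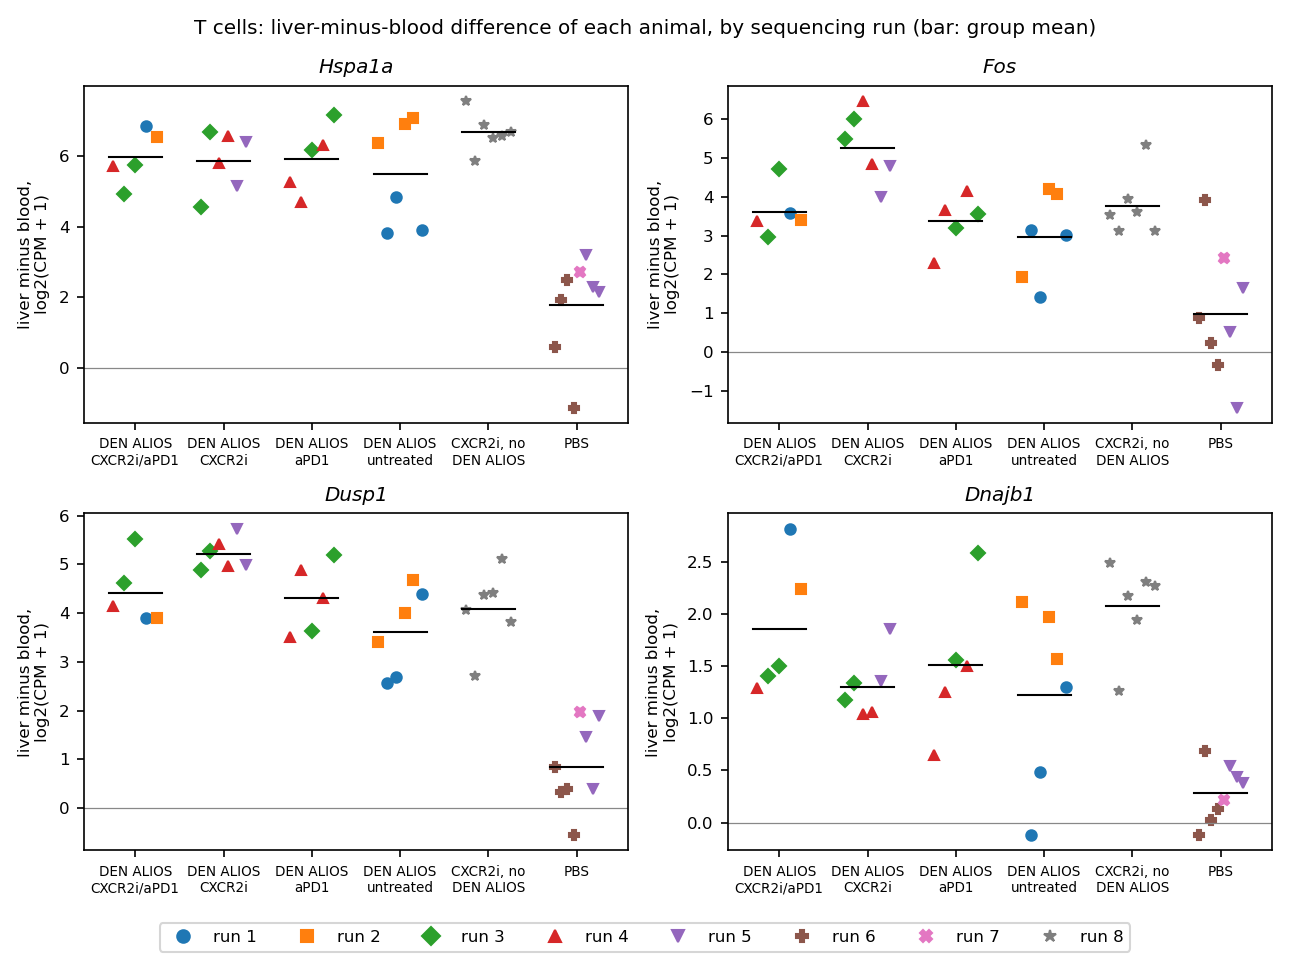
Liver-minus-blood difference in log2(CPM + 1) of Hspa1a, Fos, Dusp1 and Dnajb1 in T cells of each mouse. The x axis gives the group, the y axis the difference, symbols and colours mark the run as read from the library name, and bars the group mean. For Hspa1a no PBS mouse reached the untreated DEN ALIOS mice, which had 3.83 or more.

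Within the DEN ALIOS model, the liver effect in T cells was larger under CXCR2i than without it for 10 members. The difference DEN ALIOS CXCR2i minus DEN ALIOS was above 0 for Btg2 with 1.58 (SE 0.24, adjusted p = 0.000134), Nr4a3 with 2.26 (SE 0.37, adjusted p = 0.000389), Junb with 1.81 (SE 0.32, adjusted p = 0.000932) and Klf6 with 1.15 (SE 0.22, adjusted p = 0.00261), where 1.39% of all genes were called, 1.19% above and 0.195% below. Jund, Nr4a1, Ier2, Bag3, Fosb and Fos made up the rest, with 0.92, 1.85, 1.17, 0.92, 2.60 and 2.22. The liver medians behind these were 541 CPM of Btg2 under CXCR2i and 184 CPM without it, and 308 and 57.1 CPM of Nr4a3. Hspa1a differed by 0.42 (SE 1.11, adjusted p = 0.974) and Hspa1b by 0.91, and of the heat shock members Bag3 alone passed. The 6 untreated and 6 CXCR2i mice share no run, so run and treatment cannot be told apart here. Over the 12 fits that left out 1 mouse, Fos lost the call in 7 (1.81 to 2.49), Fosb in 4 (2.22 to 3.01), Ier2 in 4 (0.99 to 1.29), Bag3 in 4 (0.85 to 0.99) and Nr4a1 in 1, without untreated replicate 6 (1.67 to 2.19). Without the mice labelled Vehicle or aPD1 isotype, which leaves 2 mice under CXCR2i, Fos at 3.00, Fosb at 2.92, Jund at 1.12, Klf6 at 1.24 and Bag3 at 1.25 lost the call. Without the block by mouse, in a fit that also held an unpaired untreated blood library, Fos, Fosb, Jund and Bag3 lost it, at 2.45, 2.39, 0.92 and 0.95.

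No member passed the test of the difference between DEN ALIOS aPD1 and DEN ALIOS, or between DEN ALIOS CXCR2i/aPD1 and DEN ALIOS, in its liver effect in T cells. Across all genes 0.0216% and 0% were called. For the combination edgeR called 0 genes, with 696 at an unadjusted p under 0.05, and DESeq2 called 2. Fos differed by 0.41 (SE 0.59) and 0.48 (SE 0.56), and Hspa1a by 0.85 (SE 1.21) and 0.24 (SE 1.13), so differences of a log2 unit or more are within these errors.

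Neutrophils from liver also had more RNA of most members than neutrophils from blood of the same mice. Of 30 members tested, 24 rose under DEN ALIOS CXCR2i/aPD1, 24 under DEN ALIOS CXCR2i, 23 under DEN ALIOS aPD1 and 23 in untreated DEN ALIOS mice. Socs3 fell under the combination, with a change of -0.75 on the log2 scale with an adjusted p of 0.0339, and no other member fell. Across all genes tested, 45.6%, 40.5%, 54.7% and 43.2% were called, and 24.6%, 23.6%, 32.8% and 26.2% rose, while 21%, 16.8%, 21.9% and 17.1% fell. The median log2 change of the members was 1.79, 1.98, 2.35 and 2.43, beside 0.0586, 0.0907, 0.240 and 0.148 over all genes. Liver values lay above all blood values for 13, 13, 15 and 11 members, and for 6.13%, 3.3%, 19.6% and 7.13% of all genes tested. The Socs3 call was lost without replicate 1, 2, 3, 4 or 6, with log2 changes of -0.85 to -0.63 over the 8 fits that left out a mouse.

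The NR4A receptor genes, Egr1, Egr3 and Dusp2 had the 6 largest changes among immediate early members in each group. Nr4a3 had lowest, median and highest values of 27.9, 478 and 1143 CPM in untreated liver neutrophils and 0, 0.374 and 1.65 CPM in blood neutrophils. Under DEN ALIOS aPD1 it had 799.9, 86.1, 721, 39.0 and 133 CPM in the 5 liver libraries and 0.574, 0.259, 0.164, 0 and 0.837 CPM in blood. No group overlapped, and the log2 changes were 6.41 (SE 0.78, adjusted p = 3.83e-07), 7.96 (SE 0.72, adjusted p = 2.26e-09), 9.49 (SE 1.17, adjusted p = 7.52e-07) and 9.10 (SE 1.02, adjusted p = 2.05e-07) in the combination, CXCR2i, aPD1 and untreated groups. The blood levels are near the limit of detection, so these folds are rough. Nr4a1 had 371, 2793 and 5437 CPM in untreated liver and 57.2, 80.2 and 125 CPM in blood, with changes of 5.06, 5.73, 5.09 and 4.84 in the 4 groups. Egr1 had 272, 2607 and 4375 CPM in untreated liver and 34.4, 60.7 and 86.9 CPM in blood, with changes of 4.16, 4.65, 5.40 and 5.32. Egr3 changed by 3.70, 5.00, 5.94 and 5.34 and Egr2 by 2.38, 3.60, 3.52 and 3.07. Nr4a2 rose in all 4 groups and had 3.88, 26.5 and 86.6 CPM in liver and 0, 0 and 0.364 CPM in blood under CXCR2i. In blood neutrophils of the aPD1 group it had 2 counts over 5 libraries, and no fold is given there.

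The AP-1 genes changed by less than the NR4A genes in neutrophils. Fos had 687, 3018 and 4336 CPM (lowest, median and highest) in untreated liver neutrophils and 686, 1164 and 1374 CPM in blood neutrophils, higher in liver in 5 of 6 mice. Its log2 changes were 1.38 (SE 0.31, adjusted p = 0.000659), 1.43 (SE 0.28, adjusted p = 0.000147), 1.19 (SE 0.42, adjusted p = 0.0168) and 1.30 (SE 0.37, adjusted p = 0.00525) in the combination, CXCR2i, aPD1 and untreated groups, and the aPD1 call was lost without replicate 3 or 5 (0.77 to 1.67 over the fits that left out a mouse). Fosb changed by 2.90, 3.59, 3.45 and 4.55, Atf3 by 2.61, 3.78, 3.61 and 3.49, Jun by 2.13, 1.83, 2.19 and 2.29 and Junb by 1.26, 1.40, 1.25 and 1.86. Jund did not pass in any group, with -0.23, 0.05, -0.74 and -0.02. Of the signal-limiting genes, Dusp2 rose by 3.79, 5.32, 4.98 and 5.08, Zfp36 by 1.59, 1.60, 1.53 and 2.09 (under aPD1 lost without replicate 1, 3 or 5, as was Junb, with 1.21 to 2.06 and 0.90 to 1.73) and Btg2 by 1.65, 2.27, 1.59 and 1.95. Dusp1 was at 707, 4475 and 7974 CPM in liver neutrophils of untreated mice and already at 1578, 1852 and 2033 CPM in blood neutrophils. It passed under CXCR2i with 1.04 (SE 0.33, adjusted p = 0.0127) and had 0.43, 0.52 and 1.01 in the combination, aPD1 and untreated groups. The CXCR2i call of Dusp1 was lost without the mice labelled aPD1 isotype, at 0.74 (adjusted p = 0.268 by edgeR). In untreated mice it was called at 1.15 by DESeq2, at 1.15 with relative log expression scaling, at 1.01 with no filter, at 1.34 without the block but with unpaired blood libraries, without replicate 2 and, at 1.27, without the shallow and mixed libraries. Under aPD1 it was called at 1.01 without the block and at 1.51 without those libraries, and in the combination at 0.52 when fitted alone. Ier3, a survival gene, rose by 1.44, 2.13, 2.03 and 2.56, while Ier5 and Klf6 passed in no group and Ier2 passed under the combination with 0.95 (SE 0.31, adjusted p = 0.0143). Ier2 was also called under CXCR2i at 0.72 by DESeq2, at 0.72 with relative log expression scaling, at 0.70 with no filter and at 0.72 when fitted alone. When the 5 aPD1 mice were fitted alone, Fos at 1.26, Junb at 1.32, Zfp36 at 1.60, Btg2 at 1.66 and Ier3 at 2.10 lost their calls, with adjusted p between 0.0551 and 0.12 by edgeR. Jund under aPD1 was called lower with no filter, at -0.83, and without replicate 1, 3 or 5 (-0.93 to -0.44).

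Among heat shock members, Hsph1 and Bag3 changed most in neutrophils, from blood levels near 0. Hsph1 had 0.670, 16.4 and 132 CPM in untreated liver neutrophils and 0, 0.572 and 0.692 CPM in blood neutrophils, and under aPD1 27.2, 43.1, 8.78, 51.5 and 17.9 CPM in liver and 0.383, 0.388, 0.164, 0.796 and 8.20 CPM in blood. Its log2 changes were 3.53 (SE 0.63, adjusted p = 4.57e-05), 4.09 (SE 0.60, adjusted p = 2.84e-06), 4.87 (SE 0.82, adjusted p = 2.75e-05) and 5.46 (SE 0.83, adjusted p = 9.15e-06) in the combination, CXCR2i, aPD1 and untreated groups. Bag3 changed by 3.44, 3.30, 4.04 and 5.27, at 0.670, 6.78 and 9.36 CPM in untreated liver and 0, 0 and 0.636 CPM in blood. Hspe1 changed by 2.51, 2.23, 3.93 and 4.04, Hspd1 by 1.05, 1.26, 2.50 and 2.08 and Hsp90aa1 by 0.83, 1.00, 1.35 and 2.14. Hspa1a had 2.24, 11.4 and 65.3 CPM in untreated liver and 0, 2.11 and 3.11 CPM in blood, with changes of 1.93, 1.88, 3.53 and 3.13, and Hspa1b changed by 2.40, 2.09, 3.76 and 3.22. Hspa8 moved by 0.41, 0.53, 0.92 and 0.63, the combination call being lost in 6 of 8 fits that left out a mouse (0.35 to 0.48), and Dnajb1 did not pass with this fit in any group, with 0.27, 0.34, 0.01 and 0.33. Dnajb1 was called by DESeq2 at 0.40, 0.40 and 0.48, and with relative log expression scaling at 0.40, 0.40 and 0.48, in the combination, CXCR2i and untreated groups. Without the mice labelled aPD1 isotype, Hspe1 at 2.07 and Hspa8 at 0.55 lost the CXCR2i call. Hspb1 had no read in any blood neutrophil library.

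The 4 liver neutrophil libraries with T cell RNA and the shallow libraries moved some of these values. Without them, with 3 untreated and 3 aPD1 mice left, the members called higher were 24 under the combination, 26 under CXCR2i, 23 under aPD1 and 23 in untreated mice, where 25.2%, 26.6%, 14.1% and 15.3% of all genes rose. In the combination 1 member was called lower, where 21.9% of all genes fell. In untreated mice Nr4a3 was then at 9.75, Bag3 at 5.72, Hsph1 at 4.35, Hspe1 at 2.94 and Hspa1a at 2.19 on the log2 scale. Hspa1b at 2.39 and Hspa8 at 0.20 lost the call, and Dusp1 at 1.27 and Ier2 at 1.13 gained it. Under aPD1 Fos was at 2.04, Dusp1 at 1.51 gained the call, and Hspe1 at 2.46 and Hspa8 lost it. In the mixed library of untreated replicate 2, Fos was lower in liver than in blood, unlike in the other 5 animals.

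**Figure D3:**
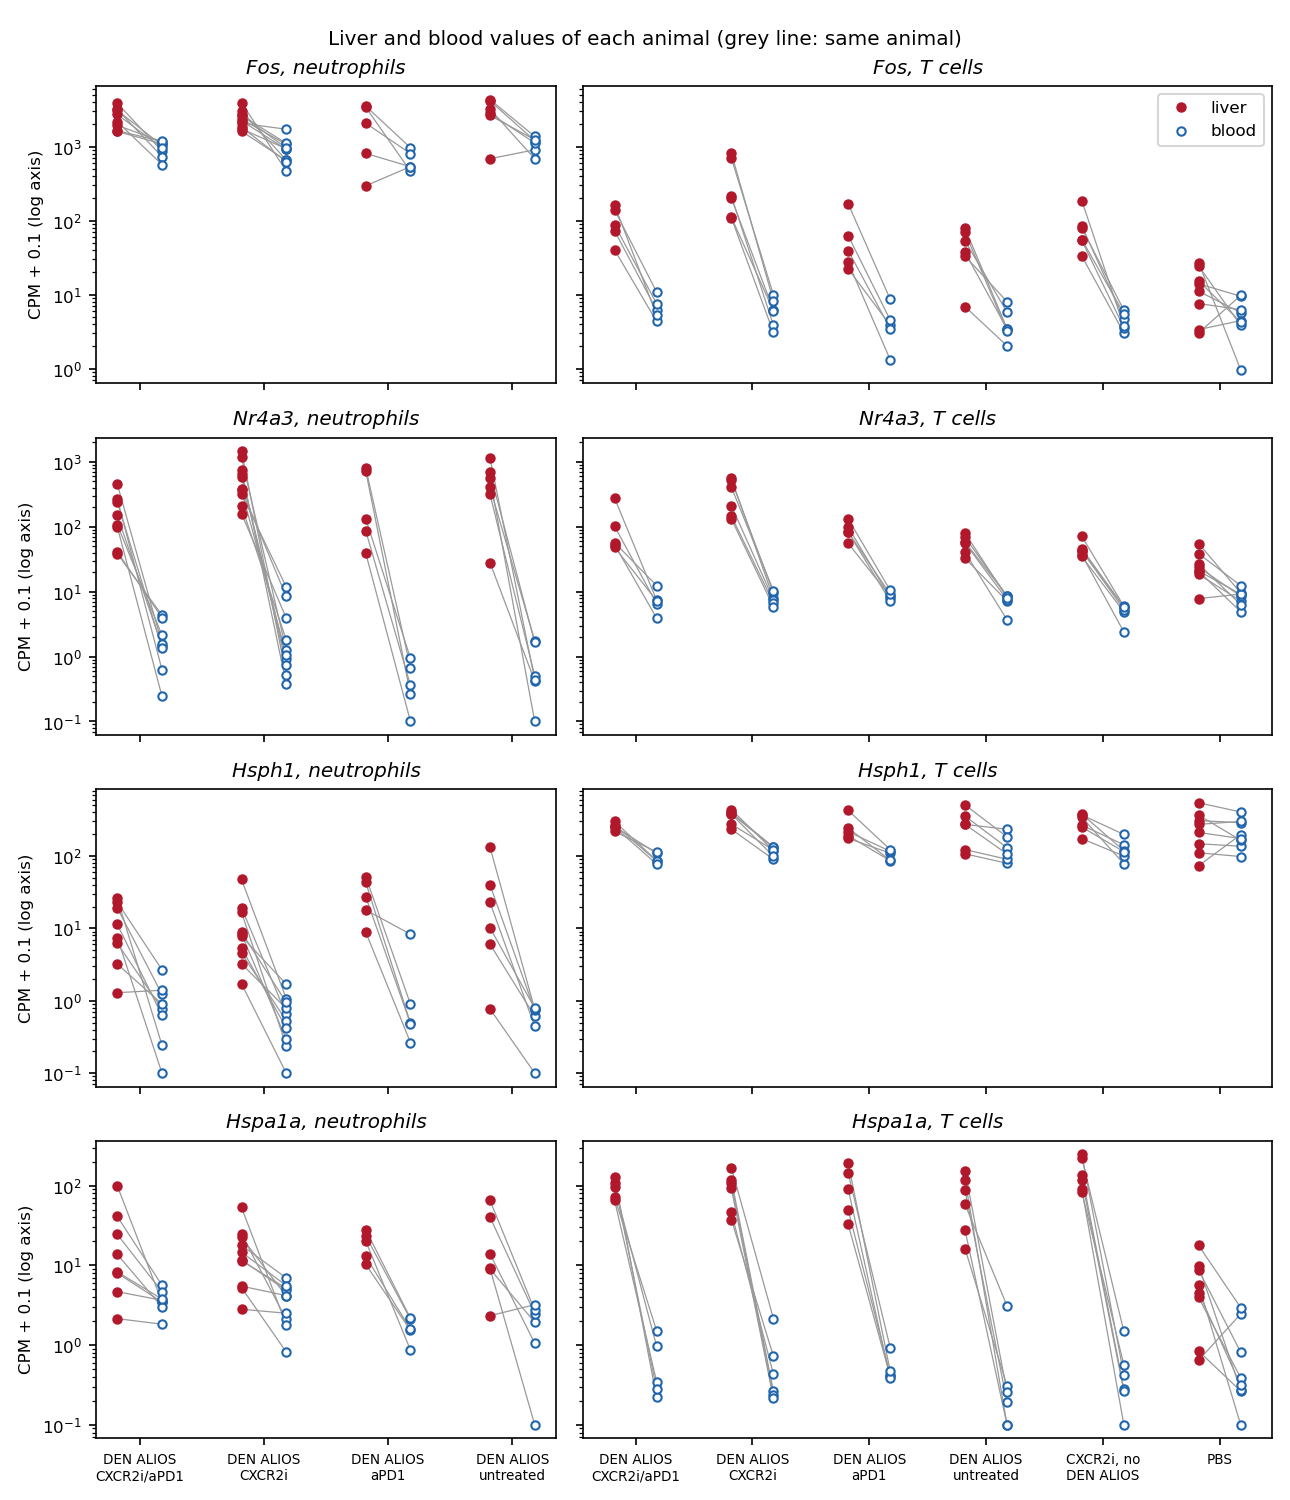
Levels of Fos, Nr4a3, Hsph1 and Hspa1a in liver (filled red) and blood (open blue) of each mouse, as CPM + 0.1 on a log axis, in neutrophils and T cells by group, with grey lines joining the same mouse. Nr4a3 lay apart between liver and blood in every neutrophil group, and Hsph1 was at 0 to 0.692 CPM in blood neutrophils and 79.2 to 234 CPM in blood T cells of untreated mice.

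The liver effect in neutrophils differed between treatments for 1 member. For Hsp90aa1 it was smaller under DEN ALIOS CXCR2i/aPD1 than under DEN ALIOS, with a difference of -1.31 (SE 0.35, adjusted p = 0.036), where 2.43% of all genes were called, 1.69% above 0 and 0.74% below. The call was lost in 9 of 14 fits that left out 1 animal (-1.56 to -1.08), at -1.23 without the shallow and mixed libraries, at -1.31 without the animals labelled Vehicle or aPD1 isotype, and at -1.29 without the block by animal but with unpaired blood libraries. CXCR2i minus untreated, with 0.561% of all genes called and 0.101% below 0, and aPD1 minus untreated, with 0%, gave no member. Nr4a3 had -2.69 (SE 1.23) for the combination and -1.14 (SE 1.19) for CXCR2i, and Hsph1 -1.93 (SE 1.04) and -1.37 (SE 1.05). At aPD1 minus untreated edgeR called 0 genes, with 766 genes at an unadjusted p under 0.05, and DESeq2 called 7.

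Neutrophils and T cells differed in the liver effect of some members. The difference was tested within each DEN ALIOS group as the liver effect in neutrophils minus the liver effect in T cells. Animals were blocks within a cell type, so neutrophils and T cells of the same mouse were not paired. In the combination and CXCR2i groups the mice of the cell types were only partly the same. It was above 0 for 5, 6, 9 and 11 members and below 0 for 12, 12, 6 and 4 under DEN ALIOS CXCR2i/aPD1, CXCR2i, aPD1 and no further agent. Of all genes, 29.9%, 27.4%, 45.4% and 34.8% were called, with 17.4%, 15.8%, 28.4% and 24.5% above 0 and 12.6%, 11.6%, 17% and 10.3% below. The member counts above 0 in the combination, CXCR2i and aPD1 groups are near the share over all genes. So are those below 0 in the aPD1 and untreated groups. The 12 members below 0 in the combination and under CXCR2i, and the 11 above 0 in untreated mice, exceed it.

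In at least 1 group 25 of 30 members passed, where 61.6% of all genes did. In each of the 4 groups the liver effect was larger in neutrophils for Nr4a3, Dusp2, Hsph1, Bag3 and Hspe1, and larger in T cells for Hspa1a, Hspa1b, Dusp1 and Fos. In the same order of groups, Nr4a3 differed by 2.75, 2.74, 6.09 and 6.22, Dusp2 by 2.04, 3.47, 3.28 and 3.52, Hsph1 by 2.10, 2.62, 3.40 and 4.74, Bag3 by 3.03, 2.13, 3.56 and 4.90 and Hspe1 by 1.78, 1.85, 2.91 and 3.38. Hspa1a differed by -5.33, -5.51, -4.36 and -4.07, Hspa1b by -4.32, -5.19, -3.86 and -3.31, Dusp1 by -4.12, -4.22, -3.98 and -2.73 and Fos by -2.45, -4.03, -2.62 and -1.98. In untreated mice the tests were 6.22 (SE 0.55, adjusted p = 7.85e-07) for Nr4a3, 4.74 (SE 0.57, adjusted p = 1.42e-05) for Hsph1, -4.07 (SE 1.07, adjusted p = 0.00758) for Hspa1a and -2.73 (SE 0.58, adjusted p = 0.00177) for Dusp1. Among HSP70 genes, the chaperones Hspa1a and Hspa1b therefore stood on the T cell side and the exchange factors Hsph1 and Bag3 on the neutrophil side. Dnajb1 stood on the T cell side in the combination, CXCR2i and aPD1 groups with -1.62, -0.92 and -1.61, and Jund in the same 3 with -1.33, -1.59 and -1.69. Hspd1 stood on the neutrophil side in the CXCR2i, aPD1 and untreated groups with 0.77, 2.00 and 1.50, and Egr1, Egr3 and Nr4a2 in the aPD1 and untreated groups. Nr4a1 with 0.55, 0.07, 1.20 and 1.03, Egr2, Hspa8, Zfp36 and Socs3 passed in none. Without the shallow and mixed libraries the same 9 genes kept their calls in each group, except Hsph1 at 1.64 and Hspe1 at 1.65 under aPD1, and Nr4a1, Zfp36 and Socs3 gained one in untreated mice at 1.29, 1.53 and 0.90, as did Nr4a1 under aPD1 at 2.29. Hspd1 lost it in untreated mice, at 0.70, and with no filter Nr4a3 at 2.70 and Hspd1 at 0.75 lost it under CXCR2i. Fits that left out 1 mouse were run only where a cell type had 5 mice in a group, which is T cells in the combination and both cell types under aPD1, so none bear on the CXCR2i and untreated groups. In these, Nr4a3 lost the call in 4 of 5 in the combination, without T cell replicate 1, 3, 4 or 5 (2.37 to 3.19), and Hspe1 without T cell replicate 2 or 4 in the combination (1.65 to 1.91) and without neutrophil replicate 1 or 2 or T cell replicate 5 under aPD1 (2.34 to 4.22). Hsp90aa1 in the combination lost it without T cell replicate 1, 2 or 5 (-0.66 to -0.51). Levels in blood differ widely between the cell types, with Fos at medians of 1164 CPM in neutrophils and 3.36 CPM in T cells and Hsph1 at 0.572 and 118 CPM.

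**Figure D4:**
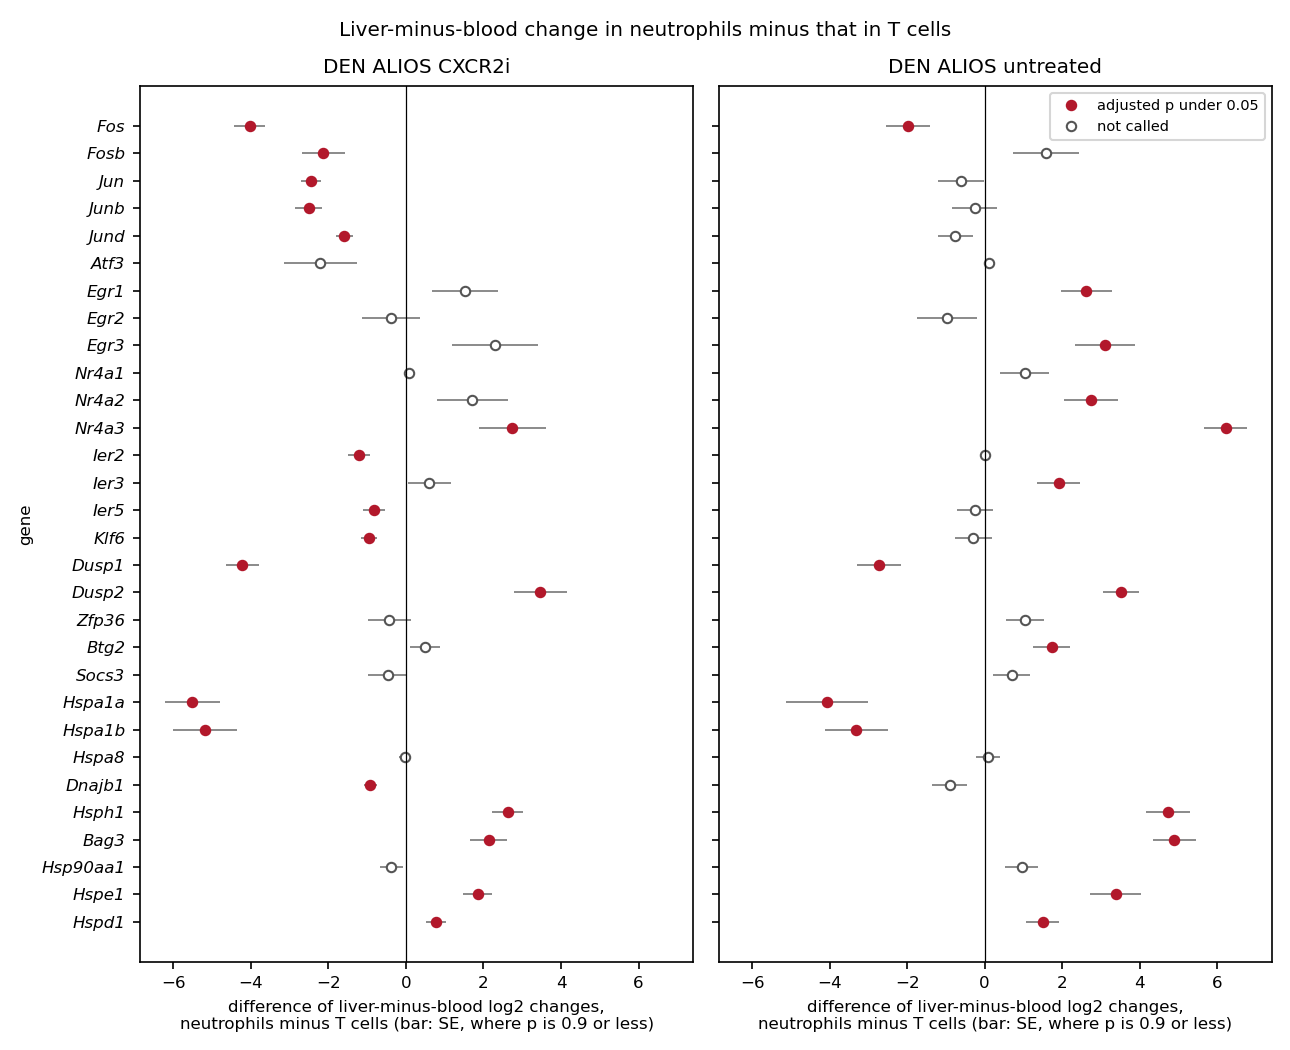
Liver effect in neutrophils minus liver effect in T cells (x axis, log2) for 30 members, under DEN ALIOS CXCR2i and in untreated DEN ALIOS mice. The liver effect was larger in neutrophils for points right of 0 and larger in T cells for points left of 0, filled points passed at an adjusted p under 0.05, and bars are the SE, left out for points almost at 0. Nr4a3 was at 2.74 and 6.22 and Hspa1a at -5.51 and -4.07.

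Whether an animal with a large liver effect in its neutrophils also had one in its T cells was checked in the 21 animals with all 4 libraries. Over 8 members the correlation of the 2 differences in log2(CPM + 1) across animals was between -0.133 for Fos and 0.367 for Nr4a1 by Pearson's r, and none passed a permutation test after Benjamini-Hochberg adjustment over the 8. Nr4a1 had an r of 0.367 (permutation p = 0.0974, adjusted p = 0.742) and a Spearman rho of 0.523 (permutation p = 0.0164, adjusted p = 0.131), and r was 0.306 without the 2 animals farthest from the median. Hspa1a had an r of 0.254 and a rho of 0.286. Taken as differences from the mean of each of the 4 treatment groups, r was between -0.470 for Fos (permutation p = 0.0313, adjusted p = 0.251) and 0.389 for Hspa1a, and again none passed after adjustment. In the 16 animals left without the shallow and mixed libraries, r was between -0.430 for Fos (permutation p = 0.095, adjusted p = 0.366) and 0.449 for Hspa1a (permutation p = 0.0814, adjusted p = 0.366), and was 0.388 for Nr4a1.

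In whole tissue the members were read in tumours against liver tissue, with the run, read from the library name as above, as a term. Of 30 members tested, 19 were higher and 5 lower in large tumours than in liver tissue, where 70.5% of all genes were called, 38.5% higher and 32.1% lower. In small tumours 18 were higher and 7 lower, where 65.7% were called, 34.7% higher and 31% lower. Calls are thus common among all genes here, in both directions. No member passed between large and small tumours, where 2.48% of all genes were called. By edgeR 4 of the 30 members had an unadjusted p under 0.05, where 18.6% of all genes did, so the members did not exceed the share over all genes. Egr3 was too low to test. Libraries of tumour and liver tissue differ in RNA of cell type markers. Hepatocyte markers summed to medians of 230717 CPM in large tumours, 260156 in small tumours and 113243 in liver tissue, and resident macrophage markers to 446, 649 and 1155 CPM. A difference in cell makeup and one in marker RNA per cell cannot be told apart here. The part of these differences in the results was not tested.

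The immediate early genes, which are also 21 of the 31 members, made up most of the higher calls. Egr1 had lowest, median and highest values of 57.6, 132 and 234 CPM in large tumours, 42.5, 132 and 244 CPM in small tumours and 7.44, 12.0 and 64.1 CPM in liver tissue, a log2 change of 3.03 (SE 0.24, adjusted p = 4.93e-17) in large and 3.02 (SE 0.24, adjusted p = 8.63e-17) in small tumours. Btg2 had 52.9, 154 and 247 CPM, 34.0, 137 and 231 CPM and 14.3, 23.9 and 42.6 CPM in the same order, and its large tumours did not overlap liver tissue. It changed by 2.58 (SE 0.19, adjusted p = 3.86e-18) and 2.49 (SE 0.19, adjusted p = 1.76e-17). Fos had 2.72, 9.05 and 19.7 CPM, 2.38, 7.19 and 18.1 CPM and 0.683, 2.21 and 4.10 CPM, with changes of 2.06 (SE 0.22, adjusted p = 1.35e-12) and 1.88 (SE 0.22, adjusted p = 2.39e-11). Ier3 changed by 2.54 and 2.11, Atf3 by 1.93 and 1.77, Junb by 1.63 and 1.59, Klf6 by 1.48 and 1.22, Egr2 by 1.11 and 1.09, Ier5 by 1.04 and 0.92 and Jun by 0.93 and 0.77 in large and small tumours. Among the immediate early members with tissue values given here, Dusp1 alone was lower in both tumour sizes. It had 5.67, 12.3 and 29.4 CPM in large tumours and 9.19, 12.9 and 32.0 CPM in small tumours. Liver tissue had 11.2, 18.1 and 25.2 CPM. The changes of Dusp1 were -0.58 (SE 0.14, adjusted p = 0.000289) in large and -0.36 (SE 0.14, adjusted p = 0.0209) in small tumours. No tissue values are given here for Fosb, Jund, Ier2, Nr4a1, Nr4a2, Nr4a3, Dusp2 and Socs3. Some of these were also called lower in small tumours, so Dusp1 was not the only exception there. The heat map of fitted changes shows the direction of each. Zfp36 passed in neither, with 0.01 (SE 0.08) and 0.06 (SE 0.08).

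Heat shock members went in both directions. Hspa1a had 0.217, 1.21 and 112 CPM in large tumours, 0.579, 3.03 and 11.3 CPM in small tumours and 0.218, 0.831 and 1.41 CPM in liver tissue. Its log2 changes were 2.53 (SE 0.65, adjusted p = 0.000473) and 2.30 (SE 0.62, adjusted p = 0.001), but the large tumour value leans on 1 library, replicate 13, and was 1.43 without it, where it still passed. Hspa1b changed by 1.07 and 1.05, with 0.47 and no call in large tumours without that library, and Hspa8 by 0.41 and 0.27. The mitochondrial pair was lower, Hspd1 with -0.54 (SE 0.06, adjusted p = 1.64e-11) and -0.48 (SE 0.06, adjusted p = 1.15e-09) and Hspe1 with -0.18 and -0.18. Hspb1 had 0.924, 4.71 and 44.7 CPM, 1.33, 4.45 and 11.0 CPM and 8.07, 11.3 and 14.9 CPM in large tumours, small tumours and liver tissue, with changes of -0.70 (SE 0.30, adjusted p = 0.0313) and -0.95 (SE 0.29, adjusted p = 0.00358). Hsph1 changed by -0.29 and -0.28, and Dnajb1, Bag3 and Hsp90aa1 passed in neither. Several calls depended on the runs. Without 1 of the 3 runs the calls of Dusp2, Nr4a3, Hspa1a, Hspa1b, Hspb1, Hspe1 and Hsph1 in large tumours and of Dusp1, Jund, Nr4a1, Nr4a2, Nr4a3, Socs3, Hspa1b, Hspe1 and Hsph1 in small tumours were each lost at least once.

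**Figure D5:**
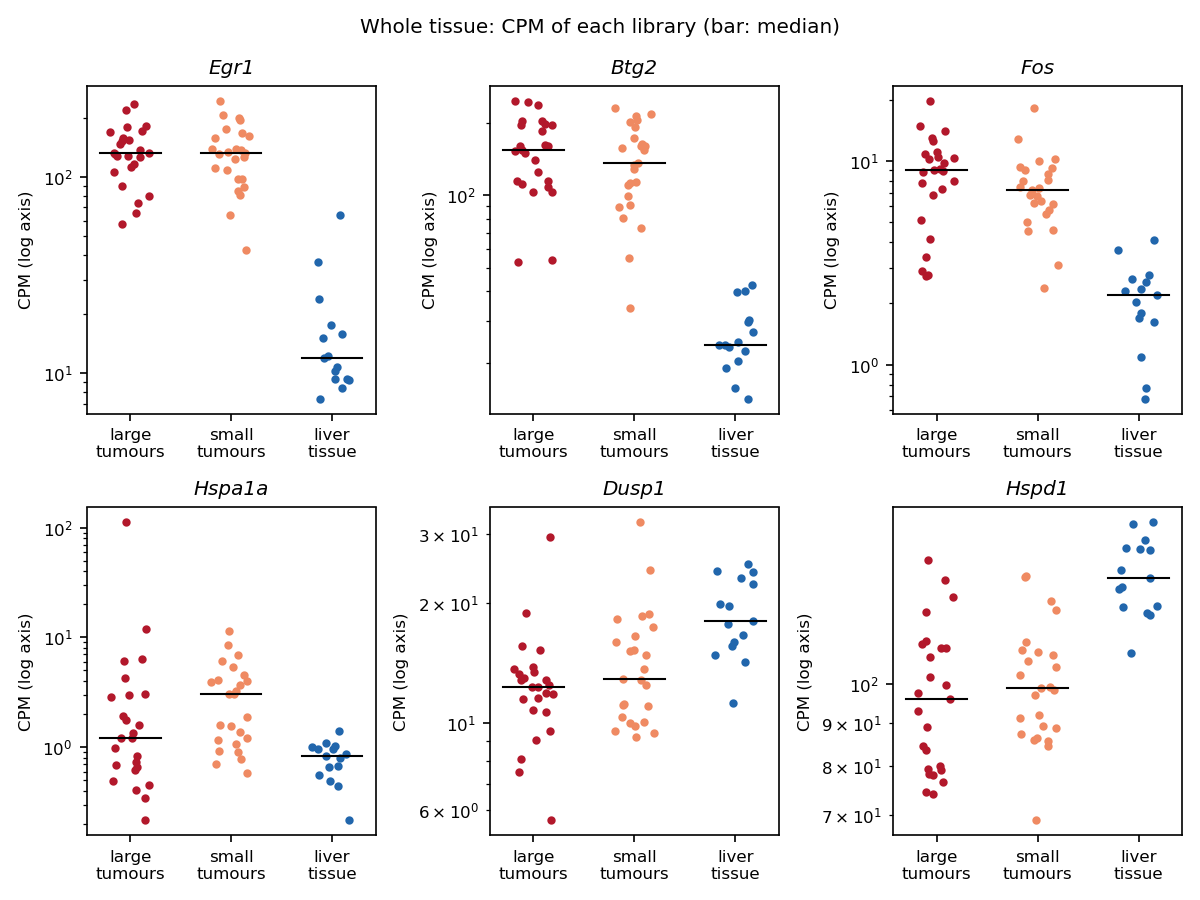
CPM on a log axis of 6 members in each library of large tumours, small tumours and liver tissue, with bars at the median. Egr1 had medians of 132, 132 and 12.0 CPM and Hspd1 of 95.9, 98.9 and 133 CPM, and in Hspa1a 1 large tumour stood at 112 CPM.

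Lists of other genes of the same pathways were read beside the members, and against all genes tested, of which 24.6%, 23.6%, 32.8% and 26.2% rose and 21%, 16.8%, 21.9% and 17.1% fell in neutrophils under the combination, CXCR2i, aPD1 and no further agent, and 8.88%, 19.9%, 9.25% and 19.8% rose in T cells, 10% with CXCR2i alone and 18.4% with PBS. Of 37 further stimulus-induced genes tested in neutrophils, 27, 29, 25 and 27 rose in liver under the combination, CXCR2i, aPD1 and no further agent, and 3, 2, 4 and 2 fell, with a median log2 change of 2.62 in untreated mice. Of 36 tested in T cells, 25, 30, 24 and 25 rose in the same groups, 26 with CXCR2i alone and 10 with PBS, with a median of 1.42 in untreated mice and 0.38 with PBS. Fosl1, an AP-1 subunit, had 2.34, 38.8 and 97.9 CPM (lowest, median and highest) in untreated liver neutrophils and 0, 0 and 0.318 CPM in blood neutrophils, and was too low to test in T cells. The other genes with the largest changes in untreated neutrophils were Ccn2, a matrix protein with no read in blood neutrophils of these mice, and the growth regulator Myc, with 1.01, 5.43 and 25.3 CPM in liver and 0, 0 and 1.31 CPM in blood. In T cells Myc had 39.0, 40.8 and 47.6 CPM in liver and 42.1, 46.3 and 67.3 CPM in blood, a log2 change of -0.24 (SE 0.14, adjusted p = 0.203). The largest changes in untreated T cells were those of the kinase Plk2 with 4.03 (SE 0.53, adjusted p = 3.03e-07), the regulator of G protein signalling Rgs1 with 3.56 (SE 0.27, adjusted p = 1.62e-11) and the MAP kinase phosphatase Dusp4 with 3.10 (SE 0.28, adjusted p = 2.01e-10), which in neutrophils had 2.63, 4.81 and 2.93. Cd69 and Dusp6, named after their values were seen, had -0.07 in T cells and -1.91 in neutrophils, so these early genes did not all go up with the members. The kinases and factors that signal to immediate early genes moved both ways, with 3 of 19 higher and 7 lower in untreated liver neutrophils and 7 higher and 2 lower in liver T cells. Of all genes 26.2% were higher and 17.1% lower in the first of these comparisons, and 19.8% and 13.2% in the second.

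Chaperones outside the members were counted in the same way, against the same shares of all genes, which for higher values in liver were 24.6%, 23.6%, 32.8% and 26.2% in neutrophils and 8.88%, 19.9%, 9.25% and 19.8% in T cells. Of 6 further mitochondrial chaperones and proteases, 5, 4, 6 and 4 rose in liver neutrophils of the 4 groups, and none of 6 rose in liver T cells of any group. Hspa9, the mitochondrial HSP70, had 37.2, 68.5 and 134 CPM in untreated liver neutrophils and 3.02, 4.77 and 8.87 CPM in blood neutrophils, a log2 change of 3.94 (SE 0.42, adjusted p = 3.69e-08), against 136, 149.6 and 167 CPM in liver T cells and 143, 146 and 157 CPM in blood T cells. Subunits of TRiC, the cytosolic chaperonin, rose in neutrophils in 4, 6, 6 and 5 of 8 cases, and in T cells 1 of 8 rose in untreated mice and 4 of 8 fell with PBS, where 16.6% of all genes fell. Of 24 further cytosolic chaperones in neutrophils, 8, 10, 11 and 12 rose, and of 26 in T cells, 9, 15, 8 and 11 rose in the 4 DEN ALIOS groups. The 8 of 24 in the combination are near the share over all genes. Hspa1l, which lies beside Hspa1a, led in T cells with 0.995, 1.75 and 4.21 CPM in liver and 0, 0 and 0.161 CPM in blood of untreated mice. In untreated neutrophils the largest changes in this list were those of the co-chaperones Fkbp4 and Chordc1, at 2.28 and 1.77. Heat shock factor 1, the regulator of the heat shock genes, had changes of 1.08 (SE 0.34, adjusted p = 0.0111) in neutrophils and -0.07 (SE 0.09, adjusted p = 0.554) in T cells of untreated mice, and heat shock factor 2 was at 0, 1.86 and 14.2 CPM in untreated liver neutrophils and 0, 0 and 0.495 CPM in blood neutrophils. In whole tissue 18 of 27 cytosolic chaperones were lower and 5 higher in large tumours than in liver tissue, and 5 of 6 mitochondrial ones were lower, where 32.1% of all genes were lower and 38.5% higher.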

How the data were processed

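The authors deposited 1 table of read counts for 37713 Ensembl genes in 199 libraries. The submitters' processing notes name the build GRCm38, HTSeq 0.11.2, HISAT2 2.1.0, and Trim Galore 0.6.4 with FastQC 0.11.8. Per the labels' protocols, sorted cells were at least 97% pure and made with SMARTer Stranded Total RNA Pico v2, and tissue with TruSeq stranded mRNA. The 5 HTSeq summary rows, 63.2% of all entries, were left out. Symbols matched 37607 genes.

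edgeR 4.0.16 (R 4.3.3) with TMM scaling, filterByExpr and a quasi-likelihood test was run on the counts as deposited, over 12831 genes in neutrophils, 13859 in T cells and 14538 in tissue. Each cell type had 1 fit with the animal as a block and a liver effect per treatment. The labels name the animals; liver and blood deviations correlated at a mean of 0.0825 in neutrophils and 0.159 in T cells of the same animal, against -0.00983 and -0.0306 between animals. Calls are Benjamini-Hochberg adjusted p under 0.05. The fits were tested on simulated data. Alternatives were DESeq2 1.42.0, relative log expression scaling, no filter, no block, each group alone, and left-out animals, runs and libraries. The fit with no block also took in blood libraries of mice without a liver library. No 2 libraries of a group agreed within sampling noise (lowest chi-square per degree of freedom 2.72).

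Named genes are all members and, of each pathway list, counts and up to 3 called genes with the largest change. The members and lists were chosen with earlier results of these data known. p-values measure the spread between these samples, which in tissue, where no animal is named, may be technical. Reads of Hspa1a and Hspa1b, and of the overlapping genes Hspe1 and Hspd1, Jun, Junb, Jund, Dusp1 and Hspa8 with their neighbours, are uncertain in part.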

Additional observations from a re-analysis of the deposited data

Results flagged for a closer look

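Each of 30 members was checked in each of 10 groups of animals, and in 18 of these 300 pairs of member and group 1 animal stood apart from the rest of its group in its liver-minus-blood difference in log2(CPM + 1), its gap to the nearest other animal being a large part of the group's whole range. Chance gives about 1 in 20 such pairs, and members of the same group share their animals, so the pairs are not independent. Among untreated DEN ALIOS mice, for neutrophils, the animal of liver replicate 2 had -1.16 for Dusp1 (0.99 to 2.13 in the other 5), 1.91 for Egr1 (5.36 to 6.57 in the other 5), -0.47 for Egr2 (2.96 to 4.58 in the other 5), 1.44 for Egr3 (5.00 to 6.91 in the other 5) and 1.56 for Nr4a1 (4.83 to 6.21 in the other 5). Its liver library is 1 of those that held T cell RNA. Among DEN ALIOS CXCR2i mice, for neutrophils, the animal of liver replicate 2 had -0.44 for Hspd1 (0.69 to 1.83 in the other 9). Among DEN ALIOS CXCR2i mice, for neutrophils, the animal of liver replicate 9 had 2.57 for Hspe1 (0.33 to 1.38 in the other 9). Among DEN ALIOS CXCR2i mice, for neutrophils, the animal of liver replicate 4 had 3.11 for Jun (1.23 to 2.22 in the other 9). Of the CXCR2i mice, for T cells, the animal of liver replicate 5 had 5.34 for Fos (3.12 to 3.94 in the other 5). Of the CXCR2i mice, for T cells, the animal of liver replicate 1 had 1.34 for Hspa8 (0.70 to 0.92 in the other 5). Of the CXCR2i mice, for T cells, the animal of liver replicate 2 had -0.18 for Klf6 (0.67 to 1.01 in the other 5). Of the untreated DEN ALIOS mice, for T cells, the animal of liver replicate 2 had 3.97 for Atf3 (0.99 to 1.53 in the other 5). Of the DEN ALIOS CXCR2i/aPD1 mice, for T cells, the animal of liver replicate 2 had 2.15 for Btg2 (0.38 to 0.86 in the other 4) and 1.79 for Klf6 (0.59 to 0.72 in the other 4). Of the PBS mice, for T cells, the animal of liver replicate 4 had 4.79 for Atf3 (-0.52 to 1.87 in the other 7) and -2.73 for Bag3 (-0.61 to 1.07 in the other 7). It had a shallow library. Of the PBS mice, for T cells, the animal of liver replicate 7 had -1.51 for Hspa1b (1.76 to 4.36 in the other 7). Of the PBS mice, for T cells, the animal of liver replicate 3 had -0.53 for Nr4a2 (0.98 to 2.11 in the other 7). It had a shallow library.

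The test of the difference itself, on the log2 scale, passed between treatments for these members. In T cells CXCR2i minus PBS gave 3.02 for Fos, 2.85 for Fosb, 2.70 for Jun, 2.30 for Junb, 0.69 for Jund, 3.02 for Nr4a1, 1.47 for Nr4a3, 1.34 for Klf6, 3.17 for Dusp1, 1.27 for Dusp2, 0.80 for Btg2, 5.76 for Hspa1a, 5.33 for Hspa1b, 1.84 for Dnajb1, 1.08 for Hsph1 and 0.99 for Hsp90aa1. DEN ALIOS minus PBS gave 2.29 for Fos, 1.57 for Jun, 1.57 for Junb, 2.02 for Nr4a1, 1.21 for Nr4a3, 0.78 for Klf6, 2.74 for Dusp1, 1.27 for Dusp2, 4.39 for Hspa1a, 3.83 for Hspa1b and 1.03 for Dnajb1. DEN ALIOS CXCR2i minus DEN ALIOS gave 2.22 for Fos, 2.60 for Fosb, 1.81 for Junb, 0.92 for Jund, 1.85 for Nr4a1, 2.26 for Nr4a3, 1.17 for Ier2, 1.15 for Klf6, 1.58 for Btg2 and 0.92 for Bag3. In neutrophils DEN ALIOS CXCR2i/aPD1 minus DEN ALIOS gave -1.31 for Hsp90aa1. The runs, read from the library names, differ between the T cell groups as described above.

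Between cell types, the liver effect in neutrophils minus that in T cells passed for 25 members in at least 1 group, where 61.6% of all genes did, and the largest value of each is given here. Under DEN ALIOS CXCR2i/aPD1 these were -2.06 for Atf3, -1.62 for Dnajb1, -0.58 for Hsp90aa1 and -0.83 for Ier5. Under DEN ALIOS CXCR2i these were -4.22 for Dusp1, -4.03 for Fos, -2.13 for Fosb, -5.51 for Hspa1a, -5.19 for Hspa1b, -1.21 for Ier2, -2.46 for Jun, -2.51 for Junb and -0.95 for Klf6. Under DEN ALIOS aPD1 these were 3.10 for Egr1, 3.39 for Egr3, 2.00 for Hspd1, -1.69 for Jund and 4.48 for Nr4a2. The value of Nr4a2 rests on 2 counts over 5 blood neutrophil libraries and gives no size of the change. In untreated DEN ALIOS mice these were 4.90 for Bag3, 1.73 for Btg2, 3.52 for Dusp2, 3.38 for Hspe1, 4.74 for Hsph1, 1.91 for Ier3 and 6.22 for Nr4a3. In the combination the call of Hsp90aa1 was lost without the shallow library, at -0.56, and without T cell replicate 1, 2 or 5 (-0.66 to -0.51), and that of Atf3 without T cell replicate 2 (-2.30 to -1.20).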

How the results depend on the processing

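Counts below are genes called across the table unless members are named, and the cause of each change was not tested. Among refitted member values 9908 kept their call or lack of a call, 226 lost the call and 137 gained it. None that was called in the main fit or in the refit changed sign. Values called in neither were not checked for sign. Relative log expression scaling moved the median of all genes from the value used here, to 0.315 against 0.148 in untreated neutrophils, 0.448 against 0.240 under aPD1 and 0.180 against 0.0586 in the combination, and log2 changes there are relative to these shifts. Depth limits the members that are nearly silent in blood.

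With each group fitted alone, neutrophils gave 1954 genes in untreated mice (5545 in the joint fit) and 4307 under aPD1 (7016), and T cells 787 with PBS (4850), 3618 with CXCR2i without DEN ALIOS (2303), and 1 member lower in untreated mice (0). Without shallow or mixed libraries neutrophils gave 3449 untreated, 2990 under aPD1, 30 for CXCR2i minus untreated (72), 202 genes and 0 members for the combination minus untreated (312 and 1), and neutrophils minus T cells under aPD1 gave 3691 (5922). Without libraries labelled Vehicle or aPD1 isotype, DEN ALIOS CXCR2i gave 2454 in neutrophils (5192) and 2602 in T cells (4716), the combination gave 0 members lower in neutrophils (1), CXCR2i minus untreated 0 and 87 (72 and 192 in neutrophils and T cells), the combination minus untreated 98 genes and 0 members in neutrophils, aPD1 minus untreated 0 in T cells (3), and DEN ALIOS minus PBS 703 (1355).

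With no replicate block, so that pairing by animal was ignored and unpaired blood libraries were added, neutrophils gave 0 members lower in the combination (1), 368 genes for CXCR2i minus untreated, and 552 genes with 0 members for the combination minus untreated. This setting moved no other count in sorted cells by over 1.5 times. DESeq2 gave 7, 437 and 899 genes in neutrophils for aPD1, CXCR2i and the combination minus untreated (0, 72 and 312), with 1 and 2 members lower in the last 2, and 10, 409 and 2 in T cells (3, 192 and 0). Of genes called by DESeq2 63.6%, 53.6% and 66.7% were above 0 for CXCR2i and the combination in neutrophils and CXCR2i in T cells, against 81.9%, 69.6% and 85.9% with edgeR. With no filter the same 3 differences gave 94, 503 and 578 genes in neutrophils, with 1 and 4 members lower in the last 2, and 361, 649 and 407 in T cells, with 2, 17 and 4 members higher (0, 10 and 0). No filter also gave 1 member lower under aPD1 in neutrophils (0), 1 in untreated T cells (0), 1 with CXCR2i without DEN ALIOS (0) and 2 with PBS (1), 18 members higher for DEN ALIOS minus PBS (11), and 9 members higher for neutrophils minus T cells in the combination (5).

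In whole tissue the replicate block, in which libraries of the 3 tissues share only a number, gave 123 genes for large minus small tumours (360). DESeq2 gave 565 there, 200 were called without libraries over 10 CPM of S100a8, and 15, 75 and 157 without run 1, 2 or 3. Members lower in large tumours were 3 without run 1 (5), and in small tumours 4 without run 1, 3 without run 2 and 4 without the S100a8 libraries (7).

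Leaving out 1 animal at a time gave 381 to 1525 genes for CXCR2i minus PBS (887), 738 to 1789 genes and 7 to 14 members for DEN ALIOS minus PBS (1355 and 11), 97 to 281 genes and 6 to 11 members for CXCR2i minus untreated in T cells (192 and 10), 0 to 2 for the combination (0) and 0 to 6 for aPD1 (3). Neutrophils gave 0 to 232 genes and 0 to 1 members lower for CXCR2i minus untreated (72 and 0), 148 to 404 and 0 to 1 for the combination (312 and 1), and 0 to 2 genes for aPD1 (0). Liver minus blood in T cells gave 1409 to 1989 genes in the combination (2243) and 1375 to 1890 under aPD1 (2295), and in neutrophils 0 to 1 members were lower in the combination (1) and under aPD1 (0). Neutrophils minus T cells in the combination had 3 to 4 members higher (5). The tests of neutrophils minus T cells, their alternatives, and the tissue fit without large tumour replicate 13 were added after seeing the data.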
